A study of Mus musculus with 26 samples.

Results

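The transcripts of 10 factors of naive pluripotency, Nanog, Klf2, Klf4, Esrrb, Tfcp2l1, Zfp42, Tbx3, Prdm14, Dppa3 and Nr5a2, were followed in mouse ESCs and in NPCs made from them. They are listed by name as factors that cells lose on leaving the ESC state, and they are 10 of the 55291 genes in the count tables. RNA-seq counts covered 26 libraries in 10 groups and came from 2 experiments on lines derived from E14 ESCs. The first compared CTCF rescue lines, in which both copies of endogenous CTCF carry an AID2 degron together with a heterozygous OsTIR1(F74G) at Rosa26 and a homozygous mCherry reporter at Hb9 (Mnx1). A doxycycline-inducible Flag-Halo CTCF at Tigre takes its place, which is WT in clone C7-E10-D11 and lacks zinc finger 1 (ΔZF1) in clone C7-E10-F6. Its 4 groups were the ESCs and NPCs of each clone, written ESC-WT, NPC-WT, ESC-ΔZF1 and NPC-ΔZF1, with 2 libraries each. All 4 received 1 µM 5-Ph-IAA and 1 µg/ml doxycycline for 24 h, so none holds untreated cells, and each rescue is a single clone. The second compared untreated parental E14 cells (WT) with Podxl pA and Grb10 pA cells, as ESCs and as NPCs, with 3 libraries each. Podxl pA and Grb10 pA are clones with an eGFP and SV40pA cassette on both alleles, which ends transcription of the named gene downstream of its first coding exon. ESCs were grown in N2B27, made up with 3% serum, to which LIF, 3 µM CHIR99021 and 1 µM PD0325901 were added, and NPCs were differentiated for 2 days in N2B27. The study describes the 24 h treatment of the rescue NPCs as coming after differentiation. Rescue NPCs may therefore have been collected later than the untreated NPCs, and their day of collection is not stated.

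In mouse ESCs, LIF acts through Stat3, while inhibition of Gsk3 relieves the repressor Tcf7l1 and inhibition of Mek silences Fgf and Erk signalling, and these inputs feed a network of transcription factors that holds cells in the naive state. Klf4, Tfcp2l1 and Tbx3 are known as entry points for LIF, Klf2 for Mek inhibition, Esrrb for the release of Tcf7l1, and Nanog connects to most of the others. When the inputs are withdrawn, the network is dismantled within days, and cells pass through a formative epiblast state before they adopt a neural fate.

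Promoter sequences from RefSeq (GRCm38.p6), 250 bases before to 50 after an annotated start, were found for 7 of the 10 factors, with 10 entries in all. Both strands were searched for 4 short motifs of the network, which do not overlap each other in these windows. The motif of Esrrb and Nr5a2 (TCAAGGTCA) was in none of the 10 entries and in 0.423% of all 32851 promoters of this length, the octamer of Oct4 (ATTTGCAT) in 1 entry and 1.74%, the Klf element (GGGTGTGG) in 1 entry and 3.56%, and the Stat element (TTCCNNGAA) in 1 entry and 4.81%. The 250 bases upstream of the start are shown, 5′ to 3′ on the strand of the gene, for Zfp42, whose promoter held the octamer and the Klf element, for Esrrb, whose first promoter held the Stat element, and for Nanog and Klf2, whose transcripts moved in opposite directions in Grb10 pA NPCs. Capitals mark the motifs.
Zfp42 (chr8:43307010-43307259, minus strand): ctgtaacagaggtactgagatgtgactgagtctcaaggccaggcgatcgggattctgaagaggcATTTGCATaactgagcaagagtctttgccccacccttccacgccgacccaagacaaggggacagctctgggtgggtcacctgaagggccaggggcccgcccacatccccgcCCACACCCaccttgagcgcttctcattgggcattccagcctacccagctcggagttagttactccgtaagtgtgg
Esrrb (chr12:86360867-86361116, plus strand): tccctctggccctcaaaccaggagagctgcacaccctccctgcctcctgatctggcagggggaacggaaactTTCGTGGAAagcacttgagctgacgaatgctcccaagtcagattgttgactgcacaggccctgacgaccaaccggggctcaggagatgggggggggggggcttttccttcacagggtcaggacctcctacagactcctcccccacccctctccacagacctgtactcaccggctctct
Nanog (chr6:122707239-122707488, plus strand): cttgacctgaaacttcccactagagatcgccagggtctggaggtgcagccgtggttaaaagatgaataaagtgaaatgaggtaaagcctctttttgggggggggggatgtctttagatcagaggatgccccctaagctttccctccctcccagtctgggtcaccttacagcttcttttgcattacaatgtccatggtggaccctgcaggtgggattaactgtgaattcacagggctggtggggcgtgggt
Klf2 (chr8:72318812-72319061, plus strand): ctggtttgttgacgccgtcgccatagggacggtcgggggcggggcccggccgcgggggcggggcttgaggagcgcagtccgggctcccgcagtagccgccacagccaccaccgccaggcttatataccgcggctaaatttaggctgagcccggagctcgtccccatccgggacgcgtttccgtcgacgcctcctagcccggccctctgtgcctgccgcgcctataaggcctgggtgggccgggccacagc
In Zfp42 the octamer began 186 bases before the start on the strand of the gene and the Klf element 75 bases before it on the opposite strand. The Stat element of Esrrb began 178 bases before the start on the opposite strand, so the capitals show its reverse complement. Only exact matches were counted, so related sequences are not marked. Such matches are descriptions of the letters in the window and do not show binding.

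Libraries of the rescue lines held 6425179 to 28730435 counts on genes, and those of the truncation lines 1907505 to 8845087. The 2 NPC-WT libraries of the rescue experiment stood apart from each other, with a chi-square per degree of freedom of 63.1 over genes, against 2.92 to 6.37 for the other replicate pairs of that table and 1.69 to 27.6 in the truncation table. All 10 factors were higher in replicate 2 of NPC-WT than in replicate 1, and their summed level was 547 CPM in replicate 1 and 693 in replicate 2, and values that rest on NPC-WT are also given without either of its libraries. The truncated genes were lower in their own lines, with log2 fold changes of -2.73 in ESCs and -3.45 in NPCs for Podxl and -1.89 and -3.86 for Grb10. The labelled cell types were checked by their markers. Pou5f1 fell in NPCs from 557 to 71.3 CPM in the WT rescue line and from 545 to 313 in the parental line, and the 8 neural progenitor markers summed to 23.6 to 51.2 CPM in ESC libraries and 52.3 to 154 in NPC libraries. Hes5 was at 0 in the NPC-WT and Grb10 pA NPC libraries, and Sox1 was at 19.4 CPM in NPC-WT and 79.3 in parental NPCs. Markers of primitive endoderm were also higher in NPCs, with 9 genes summing to 307 CPM in NPC-WT, 2333 in NPC-ΔZF1, 561 in parental, 945 in Podxl pA and 491 in Grb10 pA NPCs, against 95.5 to 187 in ESC groups. The 6 mesoderm markers summed to 16.8 to 45.4 CPM in ESC libraries and 12.7 to 76.3 in NPC libraries, the 5 trophoblast markers to 60.8 to 124 CPM in ESC libraries and 67 to 297 in NPC libraries, the 5 germ cell markers to 128 to 206 CPM in ESC libraries and 85.1 to 227 in NPC libraries, and the 6 genes of 2-cell-like cells to 0.171 to 40.6 CPM in ESC libraries and 0.171 to 15.2 in NPC libraries. Tfap2c is in both the trophoblast and the germ cell list, so these sums are not independent. The part of these cell types in the results was not tested.

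Most transcripts of the network fell from ESCs to NPCs. In NPC-WT relative to ESC-WT, all 10 factors fell (down-regulated genes were 19.9% of the 16641 tested, up-regulated ones 22.0%). In the ΔZF1 rescue, 9 fell and Dppa3 was not called (background 16.9% down and 20.4% up). In each line of the truncation experiment, 9 factors fell and Dppa3 rose, against a background of 16.3% down and 16.5% up in the parental line, 14.7% and 17.1% in Podxl pA, and 17.4% and 17.2% in Grb10 pA, of 13268 genes. The median log2 fold change of the 10 was -3.58, -3.60, -3.06, -3.13 and -2.87 in the same order, while that of all genes tested lay between -0.02 and 0.02. A gene was called where edgeR's quasi-likelihood test gave an adjusted p up to 0.05 and its log2 fold change reached 0.5 or more, up or down. Levels are normalized counts (CPM) on the TMM-adjusted library size. The 2 tables were normalized separately, so levels of the 2 experiments are set side by side only as values. All 10 factors passed the filter on low counts in both tables, Prdm14 through its ESC libraries and Dppa3 in the truncation table through its NPC libraries. A factor that passes only through the cells where it is high can be called in a single direction. The fall of Prdm14 and the rise of Dppa3 are therefore descriptions and add no support to the counts. Without replicate 1 or without replicate 2 of NPC-WT, all 10 factors were still called lower in NPC-WT than in ESC-WT. The log2 fold changes without replicate 1 and without replicate 2 were -4.25 and -5.31 for Nanog, -3.28 and -3.97 for Esrrb, -2.79 and -2.92 for Tfcp2l1, -4.60 and -4.95 for Nr5a2, and -3.36 and -3.85 for Klf2. For the others they were -2.96 and -3.54 (Klf4), -3.29 and -3.87 (Zfp42), -0.58 and -0.67 (Tbx3), -4.67 and -6.91 (Prdm14) and -0.84 and -0.98 (Dppa3). In these bulk samples, fewer cells with a transcript and less of it per cell cannot be told apart.

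**Figure D1:**
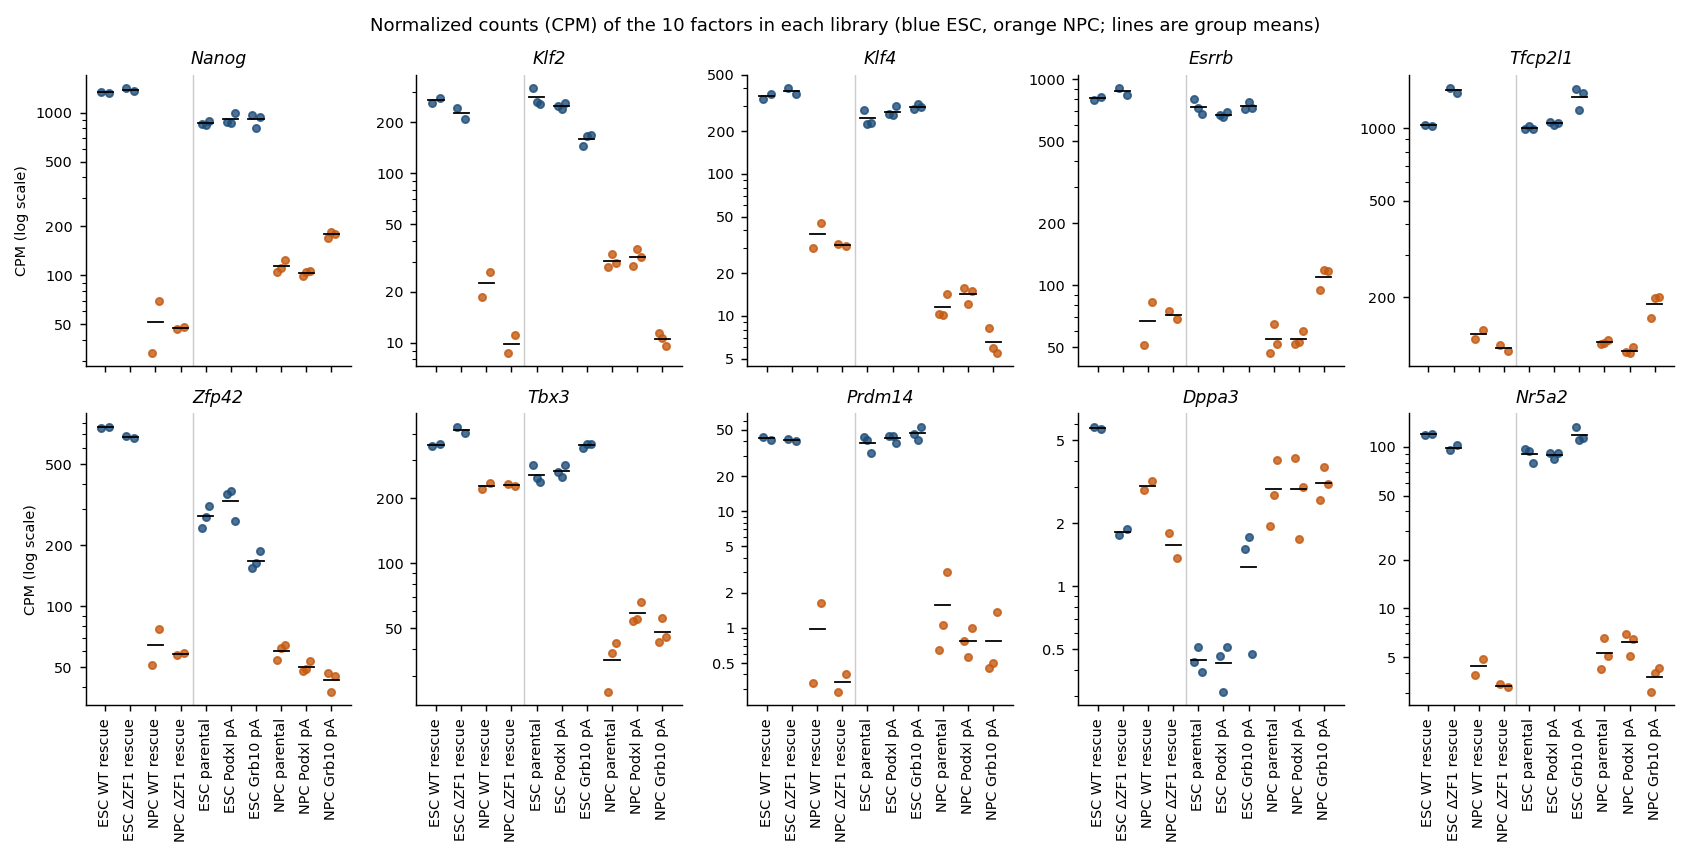
Normalized counts (CPM, log scale) of each factor in all 26 libraries, with 4 groups of the rescue experiment left of the grey line and 6 of the truncation experiment right of it. Points are libraries and black lines group means. Every NPC library lies below every ESC library of its experiment for 9 of the 10 factors, and Dppa3 departs from this pattern.

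Nanog, the homeodomain factor at the centre of the network (chr6:122707489-122714633, plus strand, GRCm38), was measured at 1334 and 1324 CPM in ESC-WT, 1418 and 1350 in ESC-ΔZF1, 33.3 and 69.6 in NPC-WT and 47.05 and 48.3 in NPC-ΔZF1. In the truncation experiment it was at 851, 843 and 881 CPM in parental, 877, 859 and 998 in Podxl pA and 972, 804 and 942 in Grb10 pA ESCs. Nanog in the NPCs of these lines was at 106, 111 and 124 (parental), 99.5, 105 and 106 (Podxl pA) and 170.5, 185 and 181 CPM (Grb10 pA). NPC libraries lay below ESC libraries throughout, and the Grb10 pA NPCs lay above the other truncation NPCs without overlap. The log2 fold change from ESCs to NPCs was -4.71 ± 0.29 in the WT rescue line, -4.86 ± 0.29 in ΔZF1, and -2.92 ± 0.09 in the parental line, -3.13 ± 0.09 in Podxl pA and -2.34 ± 0.09 in Grb10 pA, with adjusted p-values of at most 1.47e-06. This left NPCs at 3.87% of the ESC level in the WT rescue line, with 2.51% in replicate 1 and 5.24% in replicate 2 of NPC-WT, and at 13.2% in the parental line.

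Esrrb, an orphan nuclear receptor that can stand in for Nanog in the network (chr12:86361117-86521628, plus strand), stood at 795 and 819.5 CPM in ESC-WT, 907 and 835 in ESC-ΔZF1, 51.3 and 82.7 in NPC-WT and 75.3 and 68.3 in NPC-ΔZF1. Its levels in the truncation lines were 796, 721 and 677 CPM in parental, 667, 655 and 692 in Podxl pA and 717, 777 and 720 in Grb10 pA ESCs. Esrrb in the NPCs of these lines was at 46.9, 65.1 and 51.9 (parental), 52.2, 53.3 and 59.9 (Podxl pA) and 94.7, 119 and 117 CPM (Grb10 pA). Only the Grb10 pA NPCs were separate from the other NPCs of their table, and they were the higher ones. Differentiation lowered Esrrb by log2 fold changes of -3.60 ± 0.20 in the WT rescue line, -3.60 ± 0.20 in ΔZF1, and -3.72 ± 0.11 in the parental line, -3.60 ± 0.11 in Podxl pA and -2.75 ± 0.10 in Grb10 pA (largest adjusted p = 9.91e-07). NPC-WT and NPC-ΔZF1 overlapped.

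Tfcp2l1, a CP2 family factor downstream of LIF (chr1:118627945-118685168, plus strand), had the levels 1030 and 1022 CPM in ESC-WT, 1467 and 1398 in ESC-ΔZF1, 134 and 147 in NPC-WT and 127 and 120.3 in NPC-ΔZF1. The truncation lines were at 991, 1024 and 987 CPM in parental, 1062, 1027 and 1052 in Podxl pA and 1445, 1186 and 1393 in Grb10 pA ESCs. Tfcp2l1 in the NPCs of these lines was at 128, 129 and 134 (parental), 118, 118 and 124 (Podxl pA) and 165, 198 and 201 CPM (Grb10 pA). Groups of this gene were separate from their neighbours in both tables: ESC-ΔZF1 and Grb10 pA ESCs were the highest of their experiments, and NPC-ΔZF1 and Podxl pA NPCs the lowest. Its fall in NPCs was -2.87 ± 0.10 in the WT rescue line, -3.54 ± 0.11 in ΔZF1, and -2.94 ± 0.09 in the parental line, -3.12 ± 0.09 in Podxl pA and -2.84 ± 0.09 in Grb10 pA on the log2 scale (largest adjusted p = 2.53e-07).

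Nr5a2 (Lrh-1), a nuclear receptor that binds the same motif as Esrrb (chr1:136842571-136960448, minus strand), was at 119 and 121 CPM in ESC-WT, 95.2 and 102 in ESC-ΔZF1, 3.86 and 4.898 in NPC-WT and 3.38 and 3.27 in NPC-ΔZF1. The truncation lines had 97.7, 95.03 and 79.99 CPM in parental, 91.8, 83.7 and 91.2 in Podxl pA and 134, 109.8 and 114 in Grb10 pA ESCs. Nr5a2 in the NPCs of these lines was at 4.21, 6.57 and 5.06 (parental), 6.94, 5.08 and 6.502 (Podxl pA) and 3.04, 3.99 and 4.28 CPM (Grb10 pA). Its ESC groups were separate in the rescue table, WT above ΔZF1, and Grb10 pA ESCs lay above the other ESCs of their table. NPC libraries held few reads of it, from counts of 13 to 96 per library. The log2 fold changes were -4.81 ± 0.15 in the WT rescue line, -4.89 ± 0.14 in ΔZF1, and -4.03 ± 0.16 in the parental line, -3.85 ± 0.15 in Podxl pA and -5.02 ± 0.15 in Grb10 pA (largest adjusted p = 2.53e-07).

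Klf2, a Krüppel-like factor stabilized by Mek inhibition (chr8:72319033-72321656, plus strand), was found at 260 and 278 CPM in ESC-WT, 242 and 208 in ESC-ΔZF1, 18.6 and 26.2 in NPC-WT and 8.71 and 11.1 in NPC-ΔZF1. In truncation lines Klf2 was at 318, 263 and 256 CPM in parental, 249.9, 238 and 261 in Podxl pA and 145, 165 and 169 in Grb10 pA ESCs. Klf2 in the NPCs of these lines was at 28.2, 33.5 and 29.7 (parental), 28.5, 35.6 and 32.2 (Podxl pA) and 11.4, 10.7 and 9.58 CPM (Grb10 pA). Every neighbouring pair of groups was separate in the rescue table, and Grb10 pA was the lowest group among ESCs and again among NPCs of the truncation table. NPCs differed from ESCs by -3.60 ± 0.19 in the WT rescue line, -4.51 ± 0.19 in ΔZF1, and -3.18 ± 0.11 in the parental line, -2.94 ± 0.10 in Podxl pA and -3.90 ± 0.12 in Grb10 pA (log2 fold changes, largest adjusted p = 7.18e-07). The lowest group of the rescue experiment was NPC-ΔZF1 at 9.91 ± 1.699 CPM (SD, n = 2), and that of the truncation experiment Grb10 pA NPCs at 10.55 ± 0.906 (SD, n = 3).

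Klf4, the Krüppel-like factor of the reprogramming set and a target of Stat3 (chr4:55527143-55532466, minus strand), was at 339 and 365 CPM in ESC-WT, 404 and 367 in ESC-ΔZF1, 30.2 and 44.95 in NPC-WT and 32.2 and 31.3 in NPC-ΔZF1. Klf4 of the truncation experiment was at 282, 226 and 229.5 CPM in parental, 263, 260 and 301 in Podxl pA and 284, 313 and 295 in Grb10 pA ESCs. Klf4 in the NPCs of these lines was at 10.4, 10.1 and 14.2 (parental), 15.7, 12.1 and 15 (Podxl pA) and 8.21, 5.98 and 5.47 CPM (Grb10 pA). Among the ESCs of the truncation table, Podxl pA overlapped with both other lines while every Grb10 pA library lay above the parental ones, and among NPCs only Grb10 pA was separate, at the lowest level. Log2 fold changes from ESCs to NPCs were -3.24 ± 0.17 in the WT rescue line, -3.60 ± 0.17 in ΔZF1, and -4.45 ± 0.14 in the parental line, -4.27 ± 0.13 in Podxl pA and -5.44 ± 0.14 in Grb10 pA (largest adjusted p = 7.88e-07), so that the residual level in NPCs was 10.7% in the WT rescue line and 4.69% in the parental line.

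Zfp42 (Rex1), the zinc finger gene used as the reporter of the naive state (chr8:43295063-43306980, minus strand), was at 752 and 764 CPM in ESC-WT, 690.2 and 675 in ESC-ΔZF1, 51.5 and 77.2 in NPC-WT and 57.7 and 58.8 in NPC-ΔZF1. In the truncation lines it was at 244, 275 and 312 CPM in parental, 355, 367 and 263 in Podxl pA and 154, 163 and 186 in Grb10 pA ESCs. Zfp42 in the NPCs of these lines was at 54.4, 62.5 and 64.7 (parental), 47.8, 49.1 and 53.9 (Podxl pA) and 47.03, 37.9 and 45.5 CPM (Grb10 pA). Rescue ESCs held more Zfp42 than any ESC library of the truncation lines, while NPCs of both experiments lay in one range, from 37.88 to 77.17 CPM. Its log2 fold changes were -3.57 ± 0.17 in the WT rescue line, -3.55 ± 0.17 in ΔZF1, and -2.18 ± 0.12 in the parental line, -2.72 ± 0.12 in Podxl pA and -1.93 ± 0.12 in Grb10 pA (largest adjusted p = 5.83e-07). Of the 50-base runs in its transcripts, 8.52% also occur in the pseudogene Zfp42-ps1, which was listed at a mean of 56.5 CPM in ESC-WT and 4.66 in NPC-WT, so a small part of its reads may have been assigned to either.

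Tbx3, a T-box factor that links LIF signals to Nanog (chr5:119670669-119684724, plus strand), was at 350 and 357 CPM in ESC-WT, 430.5 and 401 in ESC-ΔZF1, 221 and 236 in NPC-WT and 233 and 229 in NPC-ΔZF1. Tbx3 of the truncation experiment was at 287, 249 and 238 CPM in parental, 266, 251 and 285 in Podxl pA and 343, 358 and 359 in Grb10 pA ESCs. Tbx3 in the NPCs of these lines was at 25.2, 38.2 and 42.8 (parental), 54.2, 55.3 and 66.02 (Podxl pA) and 43.1, 55.6 and 45.7 CPM (Grb10 pA). The rescue NPCs therefore kept 64.5% (WT) and 55.5% (ΔZF1) of the ESC level, while the truncation lines kept 13.7% (parental), 21.9% (Podxl pA) and 13.6% (Grb10 pA). The log2 fold changes were -0.63 ± 0.10 in the WT rescue line, -0.85 ± 0.10 in ΔZF1, and -2.85 ± 0.13 in the parental line, -2.18 ± 0.12 in Podxl pA and -2.89 ± 0.12 in Grb10 pA (largest adjusted p = 0.000442). Tbx3 shares 115 exon bases with Tbx3os1 on the opposite strand, and strand was not used in the counting. Tbx3os1 was listed at a mean of 2.36 CPM or less in every group.

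Prdm14, a PR-domain protein that represses Fgf signalling and DNA methyltransferases (chr1:13113457-13127163, minus strand), was at 43.7 and 40.8 CPM in ESC-WT, 41.9 and 39.9 in ESC-ΔZF1, 0.339 and 1.63 in NPC-WT and 0.282 and 0.405 in NPC-ΔZF1. The truncation lines had 43.4, 40.9 and 31.8 CPM in parental, 44.4, 44.2 and 38.6 in Podxl pA and 46.5, 40.7 and 53.3 in Grb10 pA ESCs. Prdm14 in the NPCs of these lines was at 0.647, 1.07 and 3.03 (parental), 0.771, 0.565 and 1 (Podxl pA) and 0.4501, 0.498 and 1.37 CPM (Grb10 pA). ESC groups overlapped within both tables, and so did the NPC groups, in which Prdm14 rested on 2 to 19 reads per library. Its log2 fold changes, -5.71 ± 0.38 in the WT rescue line, -6.87 ± 0.39 in ΔZF1, and -4.75 ± 0.27 in the parental line, -5.72 ± 0.28 in Podxl pA and -5.93 ± 0.27 in Grb10 pA (largest adjusted p = 2.16e-06), were the lowest estimates of the 10 factors in each line. These few reads limit that order, since Prdm14 was -4.67 without replicate 1 and -6.91 without replicate 2 of NPC-WT, and with a library left out it lay between -5.35 and -4.40 in the parental line, where Klf4 lay between -4.58 and -4.32.

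Dppa3 (Stella), a maternal and germ line protein that protects methylation marks in the early embryo (chr6:122626410-122630272, plus strand), was the lowest factor in ESCs and the only one that did not fall in every line. It was at 5.81 and 5.67 CPM in ESC-WT, 1.76 and 1.89 in ESC-ΔZF1, 2.88 and 3.18 in NPC-WT and 1.797 and 1.36 in NPC-ΔZF1, from counts of 24 to 87 reads. The truncation lines had 0.436, 0.514 and 0.388 CPM in parental, 0.463, 0.312 and 0.515 in Podxl pA and 1.51, 1.73 and 0.474 in Grb10 pA ESCs. Dppa3 in the NPCs of these lines was at 1.94, 2.75 and 4.04 (parental), 4.11, 1.69 and 3.001 (Podxl pA) and 2.59, 3.74 and 3.08 CPM (Grb10 pA). These rest on 2, 3 and 1 reads in parental ESCs, 2, 2 and 1 in Podxl pA ESCs and 7, 5 and 2 in Grb10 pA ESCs, and on 6 to 23 reads in the NPC libraries. ESC-WT lay above NPC-WT without overlap, whereas every truncation NPC group lay above the ESC group of its line, and few ESC reads stand behind these folds. The log2 fold changes were -0.93 ± 0.24 (adjusted p = 0.00966) in the WT rescue line, -0.21 ± 0.27 (adjusted p = 0.566) in ΔZF1, 2.57 ± 0.54 (adjusted p = 0.000332) in the parental line, 2.77 ± 0.55 (adjusted p = 0.000178) in Podxl pA and 1.32 ± 0.43 (adjusted p = 0.012) in Grb10 pA. The call was lost without replicate 2 of ESC-WT (adjusted p = 0.0614) and, in Grb10 pA, without ESC replicate 3 (0.91, adjusted p = 0.104). Of its 50-base runs, 16.5% occur in other genes, among them Dppa3-ps, which was listed at a mean of 0.129 CPM or less in every group.

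**Figure D2:**
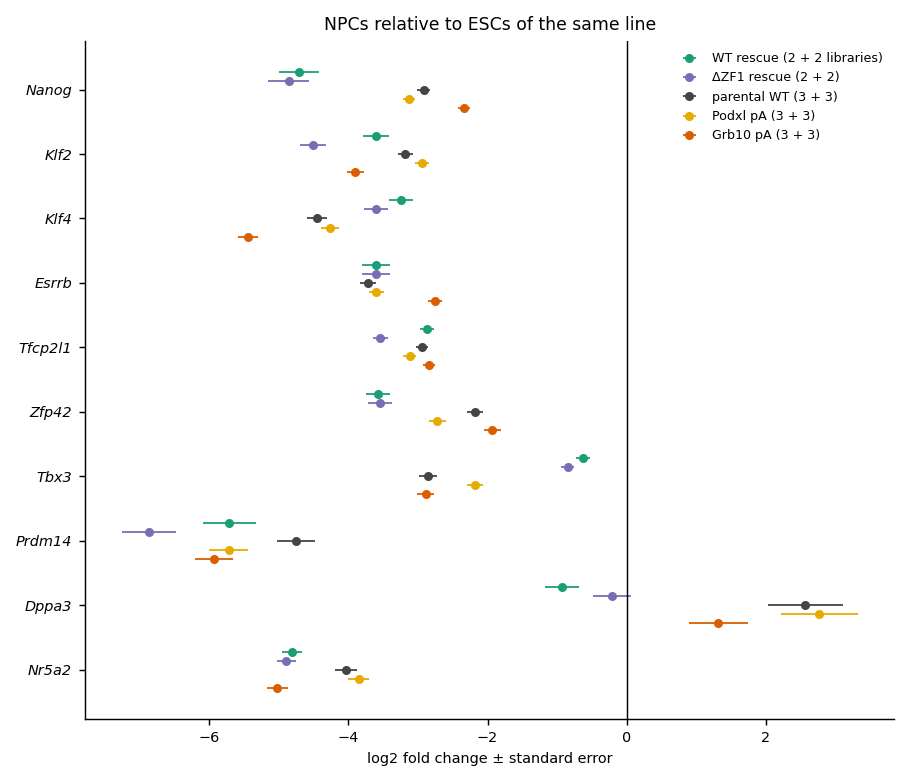
Log2 fold change from ESCs to NPCs of each factor in the 5 lines, as points with standard errors. Tbx3 lies at -0.63 and -0.85 in the rescue lines and between -2.89 and -2.18 in the truncation lines, and Dppa3 is the only factor right of 0.

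Compared per kilobase of exon, so that genes can be set beside each other, Nanog was the highest factor in every ESC group, ESC-WT having 593 ± 3.16 CPM per kb (SD over 2 libraries) and parental ESCs 383 ± 8.92 (SD over 3). In ESC-WT, Zfp42 followed at 403 ± 4.27, then Klf2 at 146 ± 6.97, Esrrb at 134 ± 2.85, Klf4 at 115 ± 5.998, Tfcp2l1 at 109 ± 0.581, Tbx3 at 53.4 ± 0.765, Nr5a2 at 20.3 ± 0.294, Prdm14 at 16.5 ± 0.813 and Dppa3 at 6.44 ± 0.106. In parental ESCs, Klf2 and Zfp42 differed by less than their SDs (151 ± 18.4 and 147 ± 18.3), as did Nr5a2 and Prdm14 (15.4 ± 1.62 and 15.1 ± 2.37). The order was different in NPCs. In NPC-WT, Tbx3 (34.4 ± 1.602) and Zfp42 (34.2 ± 9.64) were highest and not distinguishable. Nanog was at 22.9 ± 11.4, and its libraries (14.9 and 31.05) overlapped those of Zfp42 (27.4 and 41.03). Klf4, Klf2 and Esrrb, at 12.3 ± 3.43, 12.1 ± 2.93 and 11.1 ± 3.67, lay within their spread. In parental NPCs, Nanog was highest at 50.6 ± 4.24, Tbx3 was only at 5.35 ± 1.37, and Prdm14 was lowest in all NPC groups.

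Because Tbx3, Klf4 and Dppa3 looked different between the experiments, the fold change of the WT rescue line was set against that of the parental line in 1 fit of all 26 libraries, a comparison added after the values were seen. Experiment, line, treatment and a possible difference in the time of differentiation cannot be told apart in it. Relative to the parental line, the change in the rescue line was more positive for Tbx3 (2.21 ± 0.18, adjusted p = 9.5e-11) and Klf4 (1.20 ± 0.22, adjusted p = 8.59e-05) and more negative for Nanog (-1.80 ± 0.22, adjusted p = 2.5e-07), Zfp42 (-1.39 ± 0.20, adjusted p = 3.1e-06), Dppa3 (-3.54 ± 0.58, adjusted p = 1.85e-05) and Nr5a2 (-0.78 ± 0.24, adjusted p = 0.0103). These are 2 factors called up and 4 called down, where 17.4% and 17.8% of 14742 genes were called. Dppa3 rests on 1 to 3 reads per parental ESC library, no more than a count of 0 allows, so the size of its difference is poorly known. The factors called also depended on the NPC-WT libraries. Without replicate 1 and without replicate 2 of NPC-WT, Tbx3 was 2.26 and 2.15, Nanog -1.35 and -2.43, and Nr5a2 -0.59 and -0.95. Prdm14 was 0.08 and -2.16 and Klf2 -0.20 and -0.71 in these fits. Nr5a2 lost its call without replicate 1 of NPC-WT, and also without replicate 2 of the parental NPCs (adjusted p = 0.195).

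To ask whether CTCF without zinc finger 1 alters the naive network, ΔZF1 and WT rescue cells were compared. In ESCs, Dppa3 was the only factor called, and it fell by 1.64 on the log2 scale (± 0.26, adjusted p = 0.0154), which leaves ESC-ΔZF1 at 31.8% of ESC-WT. That is 1 of 10, with 2.33% of all genes called down and 1.29% up. Of the 387 genes called down, 222 were on chromosome 11, which holds none of the factors and had a median of -0.46 over 1322 genes, and outside it 1.08% of genes were called down. Its groups did not overlap, but the call was lost with any of the 4 libraries left out (adjusted p from 0.11 to 0.187). Tfcp2l1 was 0.48 ± 0.10 (adjusted p = 0.0275), just under the fold cutoff, and was called at 0.50 with DESeq2, with RLE normalization and with no filter on low counts. The other 8 lay between -0.28 and 0.23. The 5 germ cell markers summed to 168.7 to 181.9 CPM in ESC-WT and 129.3 to 132.9 in ESC-ΔZF1, and the 5 trophoblast markers to 95.3 to 103.8 and 70.8 to 74.4. None of either list was called, and both hold Tfap2c, so their sums are not independent. Neural progenitor (42.5 to 51.2 and 39.98 to 40.6) and primitive endoderm sums (171.6 to 202.5 and 149.2 to 171.1) were also lower, although 1 gene of each rose. Sums were higher for mesoderm markers (16.8 to 19.2 and 27.8 to 30.6, 1 rose) and 2-cell-like genes (28.4 to 33.1 and 40.5 to 40.6, 0 called). The part of these cell types in the fall of Dppa3 was not tested.

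In NPCs, Klf2 and Dppa3 fell in ΔZF1 and the other 8 factors were not called (background 10.5% down and 7.19% up, and 7.62% down outside chromosome 11, where 573 genes were lower and the median was -0.57). Klf2 was -1.16 ± 0.18, adjusted p = 0.00241, which leaves 44.3% of the NPC-WT level, and was called in every fit run for it. Dppa3 was -0.92 ± 0.25, adjusted p = 0.0264, and was not called with DESeq2 (adjusted p = 0.0655), with only the NPC libraries in the fit (0.0992), or without replicate 1 (0.0763) or 2 (0.211) of NPC-ΔZF1. The comparison depended on the NPC-WT libraries. Without replicate 1 and without replicate 2, Nanog was -0.55 and 0.50, Klf4 -0.50 and 0.06, and Prdm14 -2.23 and -0.00. In these fits the single NPC-WT library left is assumed to vary like the other groups, so only log2 fold changes are given. With both libraries, Nanog was -0.09 ± 0.25, adjusted p = 0.819, and NPC-ΔZF1 at 47.05 and 48.3 CPM lay between the 2 NPC-WT libraries. All 9 primitive endoderm markers rose in NPC-ΔZF1, to a sum of 2322 to 2343 CPM from 293 to 319.9. The genes of 2-cell-like cells rose as well, 5 of 5 tested, to 14.9 to 15.2 CPM from 3.35 to 3.44, and 4 of 5 without replicate 2 of NPC-WT. Of the trophoblast markers, 3 of 4 tested fell, to 182 to 184 CPM from 289.6 to 297, and of the germ cell markers 2 rose and 1 fell, with sums of 169 to 176 against 207 to 227 CPM. Both lists hold Tfap2c. Of the neural progenitor markers, 3 rose and 1 fell of 7 tested, with overlapping sums, and of 5 mesoderm markers 1 rose and 1 fell. The part of these cell types in the fall of Klf2 and Dppa3 was not tested.

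The effect of ΔZF1 differed between NPCs and ESCs for Tfcp2l1, by -0.67 ± 0.14, adjusted p = 0.0327 (NPC minus ESC), from 0.48 in ESCs to -0.19 in NPCs. It was the 1 factor called (1.11% of genes were called down and 1.59% up). With a term for the replicate number, no factor was called (Tfcp2l1 adjusted p = 0.0649), and of the 8 fits that left out a library the call remained only without either NPC-WT library. Klf2 missed the threshold at -0.90 ± 0.24, adjusted p = 0.092, and it was called with DESeq2 (-0.93, adjusted p = 0.0148). The factors called depended on the NPC-WT library left out. Without replicate 1 and without replicate 2, the difference was -0.73 and -0.64 for Tfcp2l1, -1.15 and -0.68 for Klf2, and -0.61 and 0.43 for Nanog.

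Truncation of Podxl, which encodes the sialomucin podocalyxin, gave no call among the factors in ESCs. None of the 10 factors was called in Podxl pA ESCs by edgeR or DESeq2, and 1 had an unadjusted p under 0.05 with either tool (0.0829% of genes were called up and 0.256% down). Log2 fold changes lay between -0.21 for Dppa3 and 0.26 for Zfp42. In NPCs, Tbx3 rose by 0.72 ± 0.13, adjusted p = 0.0048, from 35.4 ± 9.104 to 58.5 ± 6.52 CPM (SD, n = 3 each), with no overlap between the groups. This was 1 of 10 (0.384% of all genes were called up and 0.166% down). The call was lost without replicate 3 of the Podxl pA NPCs (0.62, adjusted p = 0.0691) or replicate 1 of the parental NPCs (0.55, adjusted p = 0.0536). The other 9 lay between -0.84 for Prdm14 and 0.34 for Klf4. Of the primitive endoderm markers, 5 of 9 rose in these NPCs, and 1 of 2 tested genes of 2-cell-like cells rose, with a sum of 10.4 to 12 CPM against 4.53 to 6.07. One neural progenitor marker fell, with sums of 100.1 to 100.5 against 120.3 to 137 CPM, and the part of these in the rise of Tbx3 was not tested. No factor was called for the difference between the effects in NPCs and ESCs with edgeR (2 had an unadjusted p under 0.05, and 0.0678% of genes were called up and 0.0301% down), and DESeq2 called Tbx3 (0.68, adjusted p = 0.0323).

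In cells with a truncated Grb10, an imprinted gene for an adaptor of insulin receptor signalling, factors were called in ESCs and in NPCs. In ESCs, Klf2 (-0.81 ± 0.09, adjusted p = 4.96e-07) and Zfp42 (-0.72 ± 0.11, adjusted p = 3.89e-05) fell, 2 of 10, with 4.58% of genes called down and 4.51% up (2.55% down outside chromosome 8). In both cases the Grb10 pA libraries lay below every parental library. Both genes are on chromosome 8, where the median log2 fold change of the other 728 genes tested was -0.49 in ESCs and -0.48 in NPCs, with 286 called lower and 3 higher in ESCs. With the chromosome 8 median taken out as an offset, an alternative planned with the earlier result for this chromosome known, Klf2 was -0.32 (adjusted p = 0.018) and Zfp42 -0.23 (adjusted p = 0.173) in ESCs, and neither was called. Of the factors on other chromosomes, Tfcp2l1 (0.42 ± 0.08, adjusted p = 0.000482), Nr5a2 (0.38 ± 0.10, adjusted p = 0.0118) and Tbx3 (0.45 ± 0.11, adjusted p = 0.00412) were under the fold cutoff, with Grb10 pA above the parental libraries in each case. Summed markers of other cells went in both directions in Grb10 pA against parental ESCs. Higher without overlap were primitive endoderm at 150.4 to 158 against 85.7 to 103.6 CPM (2 of 9 rose), trophoblast at 108.6 to 123.6 against 63.01 to 76.8 (1 of 4 tested rose) and germ cells at 182 to 206 against 128 to 133 (2 of 5 rose). Neural progenitor markers were lower without overlap, at 23.6 to 31.8 against 35.7 to 43.2 (1 of 5 tested fell). Mesoderm (26.2 to 38.4 against 36.8 to 45.4) and 2-cell-like sums overlapped. The trophoblast and germ cell lists share Tfap2c, so their sums are not independent. The part of these cell types in the values of the factors was not tested.

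In Grb10 pA NPCs, factors were called in both directions. Nanog (0.66 ± 0.09, adjusted p = 3.06e-06), Esrrb (0.98 ± 0.11, adjusted p = 2.03e-07) and Tfcp2l1 (0.53 ± 0.09, adjusted p = 4.16e-05) rose, and Klf2 (-1.54 ± 0.14, adjusted p = 8.23e-09) and Klf4 (-0.72 ± 0.20, adjusted p = 0.00798) fell. These were 3 of 10 up and 2 down, with 7.90% and 8.64% of all genes (6.64% down outside chromosome 8). Nanog was 1.58 times and Esrrb 2.02 times the parental NPC level, whereas Klf2 was at 34.7% and Klf4 at 56.8% of it, and the groups did not overlap for any of the 5. With the chromosome 8 offset, Klf2 was still called (-1.06, adjusted p = 4.22e-06), while Zfp42, which was -0.47 (adjusted p = 0.00802) and under the fold cutoff, came to 0.02. Tfcp2l1 was under the fold cutoff without replicate 2 (0.49) or 3 (0.48) of Grb10 pA, and Klf4 lost its call without replicate 3 of the parental NPCs (-0.58, adjusted p = 0.0518). Neural progenitor markers summed to 52.3 to 64.1 CPM in these NPCs against 120.3 to 137 in parental NPCs, with 3 of 5 tested lower. The mesoderm markers summed to 62.9 to 76.3 against 33.98 to 38.1 CPM, with 1 of 2 tested higher, while 3 of 9 primitive endoderm markers and both tested genes of 2-cell-like cells fell, the latter to 0.171 to 1.495 from 4.53 to 6.07 CPM. Of 5 germ cell markers 2 rose, and of 4 trophoblast markers tested 1 rose and 1 fell, where both lists hold Tfap2c. The part of these in the levels of the factors was not tested.

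The effect of Grb10 pA differed between NPCs and ESCs for 5 of the 10 factors. It was more positive in NPCs for Nanog (0.58 ± 0.12, adjusted p = 0.0037) and Esrrb (0.97 ± 0.14, adjusted p = 0.000139) and more negative for Klf2 (-0.73 ± 0.17, adjusted p = 0.00842), Klf4 (-0.99 ± 0.22, adjusted p = 0.00684) and Nr5a2 (-0.99 ± 0.26, adjusted p = 0.0224), where 2.86% and 3.04% of all genes were called up and down. The difference for Klf2 was -0.73 with the chromosome 8 offset. It lost its call without replicate 2 of the parental NPCs (-0.63, adjusted p = 0.0557), and that of Nr5a2 without the same library (adjusted p = 0.228) or replicate 1 of Grb10 pA NPCs (0.0974). Podxl pA and Grb10 pA were compared with the same parental libraries. For Tbx3, Podxl pA gave 0.72 and Grb10 pA 0.41 in NPCs, and for Nanog -0.13 and 0.66.

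**Figure D3:**
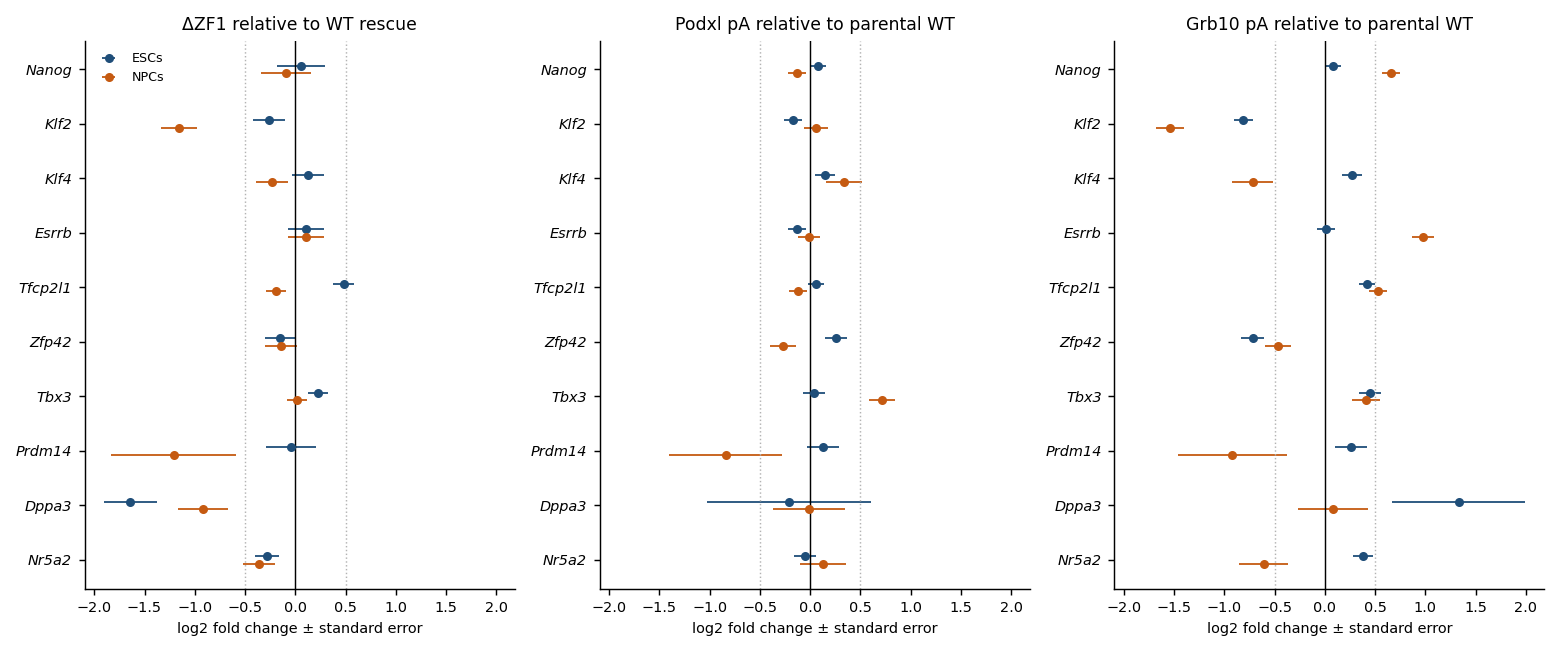
Log2 fold change of each factor against the WT cells of the same experiment, in ESCs (blue) and NPCs (orange), with standard errors and dotted lines at the fold cutoff of 0.5 in either direction. Most points of ΔZF1 and Podxl pA lie between the dotted lines, and in Grb10 pA NPCs Esrrb lies at 0.98 and Klf2 at -1.54.

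**Figure D4:**
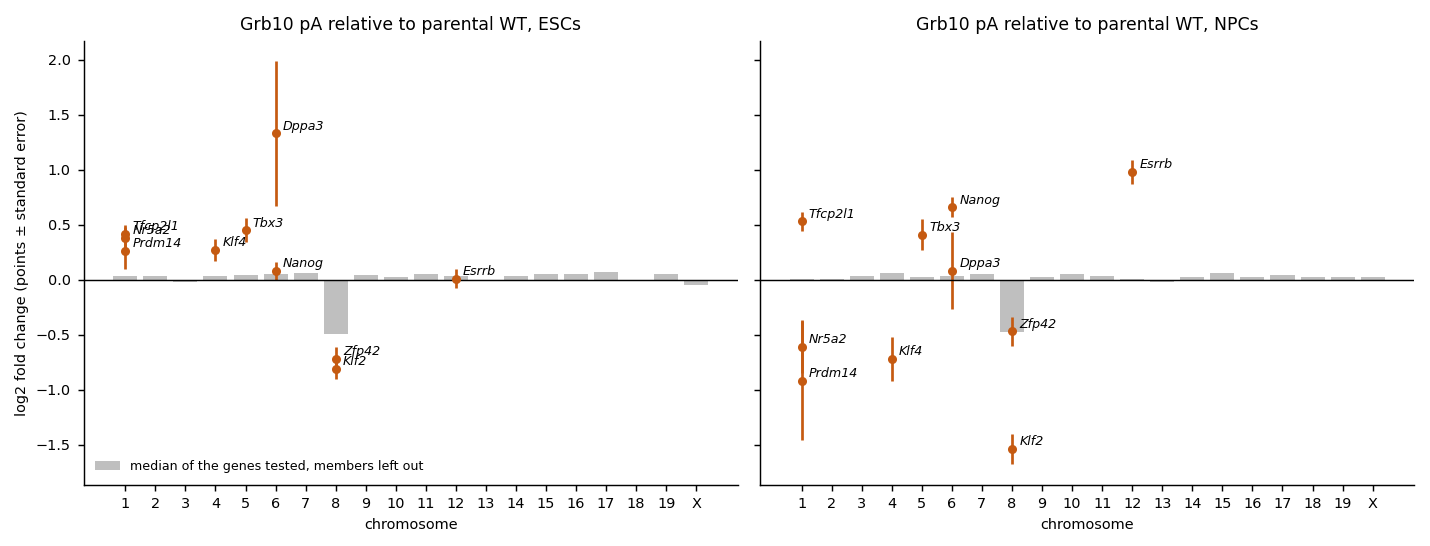
Median log2 fold change of Grb10 pA against parental cells for the genes of each chromosome (grey bars, the 10 factors left out), with the factors as points with standard errors. Chromosome 8, which carries Klf2 and Zfp42, lies at -0.49 in ESCs and -0.48 in NPCs, and the other chromosomes lie near 0.

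Other genes of the naive network were described from a list of 16. In NPCs relative to ESCs, 14 of 16 fell in the WT rescue line, 15 of 16 fell in ΔZF1, 1 rose and 9 fell of 16 in the parental line, 10 of 16 fell in Podxl pA and 10 of 16 fell in Grb10 pA. Of all genes, the shares that rose and fell were 22.0% and 19.9%, 20.4% and 16.9%, 16.5% and 16.3%, 17.1% and 14.7%, and 17.2% and 17.4% in these lines. Their median log2 fold change was -2.39 in the WT rescue line and -0.65 in the parental line. Klf5, which shares targets with Klf2 and Klf4, was -1.37 and -1.08, and Tdh, the threonine dehydrogenase of ESC metabolism, -4.85 and -4.56. In NPC-ΔZF1 relative to NPC-WT, where 7.19% of all genes rose and 10.5% fell, 5 of 16 rose, among them Klf5 (0.92 ± 0.12, adjusted p = 0.00111) and Fbxo15 (1.27 ± 0.19, adjusted p = 0.00168), opposite in direction to Klf2. Without replicate 1 and without replicate 2 of NPC-WT, Klf5 was 1.11 and 0.75 and Fbxo15 0.92 and 1.63. The genes of the list that were called differed between these fits. In Grb10 pA ESCs 3 rose and 2 fell of 16 (background 4.51% and 4.58%), with Dppa5a at 0.65 and Zscan10 at -0.70, and in Grb10 pA NPCs 1 rose and 4 fell of 16 (background 7.90% and 8.64%), with Gbx2 at -1.17, Tdh at -0.83 and Nr0b1, a partner of Nanog and Nr5a2, at 0.62.

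Upstream of the factors, among receptors and transducers of these signals, 3 rose and 2 fell of 11 in the WT rescue line and 2 rose and 4 fell of 11 in the parental line on differentiation, with Stat3, the transducer of LIF, at -0.98 and -2.18, and Lifr at -1.12 in the rescue line. Among 10 readouts of LIF, Wnt and Erk signalling, 3 rose and 6 fell of 10 in the rescue line and 5 rose and 4 fell of 10 in the parental line. For both lists, the shares of all genes that rose and fell were 22.0% and 19.9% in the WT rescue line and 16.5% and 16.3% in the parental line. Dusp6 and Spry4, targets of Erk, rose in parental NPCs (3.27 and 1.04), and Etv5, Spry2 and the Stat3 target Socs3 fell in NPC-WT (-2.91, -2.31 and -3.28). The change in the rescue line minus that in the parental line was taken without replicate 1 and without replicate 2 of NPC-WT. It was -2.46 and -2.87 for Etv5, -2.71 and -3.10 for Spry2, 0.03 and -0.52 for Socs3 and 0.16 and 0.56 for Lifr. The falls of Socs3 and Lifr were therefore not particular to the rescue line. In NPC-ΔZF1, 7 of 10 readouts rose and 1 fell relative to NPC-WT, with Spry2 at 1.51, Etv5 at 1.10 and Socs3 at -1.24, beside Stat3 at -0.78 and Lifr at 1.14, against 7.19% up and 10.5% down of all genes. Stat3 and Socs3 lie on chromosome 11, whose genes had a median of -0.57 in this comparison, with 573 lower and 17 higher. The part of this shift in their values was not tested. Without replicate 1 and without replicate 2 of NPC-WT, Spry2 was 1.32 and 1.68, Etv5 0.90 and 1.29, and Socs3 -1.51 and -0.99. Stat3 was -0.93 and -0.65 and Lifr 1.37 and 0.93 in these fits. In Grb10 pA NPCs, Stat3 (0.81) and Tcf7l1 (0.69) rose and Spry2 (-0.90), Spry4 (-0.82) and Lef1 (-0.86) fell. Of the 10 readouts, Grb10 pA ESCs had 1 up (Socs3, 0.84) and 1 down (Spry4, -1.14), with 4.51% and 4.58% of all genes called up and down.

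Genes of the formative and primed epiblast, the states that follow naive pluripotency, numbered 10, of which 7 rose and 1 fell in parental NPCs (background 16.5% and 16.3%) and 5 rose and 4 fell in NPC-WT (background 22.0% and 19.9%). Dnmt3b, a DNA methyltransferase of the epiblast, rose by 2.76 in parental NPCs and by 0.83 in NPC-WT. Their change on differentiation was more negative in the rescue line than in the parental line for all 10 in the fit of both experiments, for example by -2.27 for Dnmt3a. Of all genes, 17.8% were called more negative in that fit. Without replicate 1 and without replicate 2 of NPC-WT, Dnmt3a was -2.05 and -2.53, and not all 10 were called in these fits. In Grb10 pA NPCs, Zic2 (0.99) and Otx2 (0.86) rose. Of the core factors Pou5f1, Sox2 and Sall4, the first and second fell on differentiation in all 5 lines, and Sox2 was higher in NPC-ΔZF1 (0.82 ± 0.13, adjusted p = 0.0021, and 0.67 and 0.95 without replicate 1 and without replicate 2 of NPC-WT) and in Grb10 pA NPCs (0.53 ± 0.10, adjusted p = 0.000256). Among 21 relatives of the factors in the same protein families, 6 rose and 8 fell of 18 in the WT rescue line (background 22.0% and 19.9%). In the parental line 4 rose and 4 fell of 17 (background 16.5% and 16.3%). Klf5, Dppa2, Dppa4 and Dppa5a are also in the list of 16 naive network genes, so the 2 lists are not independent. Klf6 rose in both lines (2.54 and 0.84), opposite to Klf2 and Klf4.

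For each factor, the genes with the most similar profile were ranked by the lower of 2 Pearson correlations of log2 CPM, over the 8 rescue and over the 18 truncation libraries, among 10422 genes with a mean of at least 5 CPM in both tables. All points share the step from ESCs to NPCs, so the coefficients are high by design and are given only as a description. For Klf2 and Zfp42, those over the truncation libraries also hold the shift of chromosome 8 in Grb10 pA, which was not taken out. Zyg11a was nearest to Nanog (0.995 and 0.994) and to Esrrb (0.994 and 0.996), Acp6 to Tfcp2l1 (0.995 and 0.994), Aqp3 to Nr5a2 (0.997 and 0.991) and Tcl1 to Klf4 (0.996 and 0.994). Tcl1 and Fblim1 were among the nearest 3 of both Klf4 and Nr5a2, and Nr0b1 of both Nanog and Esrrb. Pdp2 was nearest to Klf2 (0.989 and 0.986), Gabarapl2 to Zfp42 (0.999 and 0.985), Cmklr1 to Tbx3 (0.988 and 0.982) and Slc15a1 to Prdm14 (0.994 and 0.992). Dppa3 had no close neighbour, with Parp12 at 0.947 and 0.898.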

How the data were processed

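RNA-seq counts of 26 libraries were analysed. Per the labels and the methods of the study, total RNA was depleted of rRNA and sequenced as paired reads, and the authors aligned reads to mm10 with STAR and counted them on genes with featureCounts without use of strand. The authors deposited raw counts, which are whole numbers. The versions and the annotation are not given in the sources used here. Another 3 columns of the truncation table belong to no listed sample and were left out.

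The authors tested genes with DESeq2. Here, each table was fitted whole with edgeR 4.0.16 in R 4.3.3 (TMM, filterByExpr, a mean per group, quasi-likelihood F test), and genes were called where the Benjamini-Hochberg adjusted p was up to 0.05 and the log2 fold change 0.5 or more, up or down, the cutoffs of the study. Standard errors were derived from the F values. DESeq2 1.42.0, RLE normalization, no filter on low counts, a replicate block, only the groups compared, each library left out in turn and, for Grb10 pA, a chromosome 8 offset were alternatives. The scripts were tested on simulated data. The fold change of the WT rescue against that of the parental line was compared after the values were seen, as were the gene lists without each NPC-WT library and the shares of genes called outside chromosomes 8 and 11. The precision of a level is limited by the depth of the library, and a count of 0 allows up to 3 counts.

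The factors, gene lists and tests were chosen with earlier results of these data known. The text names the 10 factors in every comparison, at most 4 called genes of a list by mean count, and the 3 genes nearest to each factor. The study calls its replicates biological, but nothing in the labels says that they came from separate cultures, so p-values measure only the spread between these samples, which may be technical. Positions and exon lengths are from GENCODE M21 on GRCm38.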

Additional observations from a re-analysis of the deposited data

Results flagged for a closer look

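The effect of a line on a factor was tested for a difference between NPCs and ESCs by a contrast of the 4 group means with edgeR's quasi-likelihood test, and those with a called difference are given as values on the log2 scale. The ΔZF1 effect on Tfcp2l1 differed by -0.67 ± 0.14 (adjusted p = 0.0327), with every ESC-ΔZF1 library above ESC-WT and every NPC-ΔZF1 library below NPC-WT. The Grb10 pA effect differed by 0.58 ± 0.12 (adjusted p = 0.0037) for Nanog and 0.97 ± 0.14 (adjusted p = 0.000139) for Esrrb, each with all 3 mutant NPC libraries above the parental ones. It differed by -0.73 ± 0.17 (adjusted p = 0.00842) for Klf2, -0.99 ± 0.22 (adjusted p = 0.00684) for Klf4 and -0.99 ± 0.26 (adjusted p = 0.0224) for Nr5a2.

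The change from ESCs to NPCs in the WT rescue line minus that in the parental line was -1.80 ± 0.22 (adjusted p = 2.5e-07) for Nanog, 1.20 ± 0.22 (adjusted p = 8.59e-05) for Klf4, -1.39 ± 0.20 (adjusted p = 3.1e-06) for Zfp42, 2.21 ± 0.18 (adjusted p = 9.5e-11) for Tbx3, -3.54 ± 0.58 (adjusted p = 1.85e-05) for Dppa3 and -0.78 ± 0.24 (adjusted p = 0.0103) for Nr5a2. The value of Dppa3 rests on 1 to 3 reads per parental ESC library, so its size is poorly known. Experiment, line, treatment and a possible difference in the time of differentiation cannot be told apart in these values.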

How the results depend on the processing

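Of the counts of called factors, 67 of 78 under another setting and 82 of 100 with a library left out were within 1.5 times the reported count, and of the values of single factors 747 of 770 and 919 of 1000 kept their direction and their side of the threshold. The differentiation comparisons had 9 or 10 factors called throughout. For ΔZF1 in ESCs, 2 were called with DESeq2, with RLE normalization and with no filter, and 0 with any library left out. For ΔZF1 in NPCs, 1 was called with DESeq2 and with only the groups compared, and 1 to 6 with a library left out. For the difference of the ΔZF1 effect, 2 were called with DESeq2 and with no filter, 0 with the replicate block, and 0 to 5 with a library left out. For Podxl pA in NPCs, 0 to 1 were called with a library left out, and for the difference of its effect 1 with DESeq2 and with no filter. For Grb10 pA, 2 to 3 were called in ESCs, 4 to 7 in NPCs and 3 to 5 for the difference with a library left out, and 0 in ESCs with the chromosome 8 offset. Deviations of same-numbered replicates from their group means had a median r of 0.066 over 12 pairs in the rescue lines and 0.001 over 45 in the truncation lines. In the rescue lines, the 2 libraries of a group deviate as mirror images, so these pairs are not independent. These values cannot settle whether same-numbered replicates are linked. The block changed no other call. Directions of small values reversed for Esrrb (0.02) and Dppa3 (0.02) for Podxl pA in NPCs and Esrrb for Grb10 pA in ESCs (-0.01) with no filter, for the latter also with only the groups compared (-0.00), for Zfp42 for Grb10 pA in NPCs with the offset (0.02), for Esrrb with the block (0.01) and Zfp42 with DESeq2, RLE normalization and no filter (-0.01) in the ΔZF1 difference, and for Tbx3 in the Grb10 pA difference with no filter (0.02). Directions also reversed with a library left out. For ΔZF1 in ESCs, the ranges were -0.08 to 0.02 for Prdm14. For ΔZF1 in NPCs, the ranges were -0.55 to 0.50 for Nanog, -0.50 to 0.06 for Klf4, -0.21 to 0.47 for Esrrb, -0.41 to 0.16 for Zfp42 and -0.03 to 0.05 for Tbx3. For Podxl pA in ESCs, the ranges were -0.01 to 0.13 for Tbx3, -0.33 to 0.05 for Dppa3 and -0.12 to 0.00 for Nr5a2. For Podxl pA in NPCs, the ranges were -0.01 to 0.16 for Klf2, -0.10 to 0.16 for Esrrb and -0.27 to 0.27 for Dppa3. For Grb10 pA in ESCs, the ranges were -0.04 to 0.08 for Esrrb. For Grb10 pA in NPCs, the ranges were -0.08 to 0.30 for Dppa3. For the ΔZF1 difference between NPCs and ESCs, the ranges were -0.61 to 0.43 for Nanog, -0.31 to 0.34 for Esrrb, -0.26 to 0.29 for Zfp42, -2.20 to 0.02 for Prdm14 and -0.28 to 0.04 for Nr5a2. For the Podxl pA difference, the ranges were -0.06 to 0.48 for Dppa3. For the Grb10 pA difference, the ranges were -0.20 to 0.08 for Tbx3. For the rescue line against the parental line, the ranges were -0.29 to 0.41 for Esrrb, -0.02 to 0.13 for Tfcp2l1 and -2.16 to 0.08 for Prdm14. The cause was not tested. Low counts limit Dppa3 and, in NPCs, Prdm14 and Nr5a2.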
